A study of Mus musculus with 10 samples.

Results

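The 10 genes described here encode members of the BCL2 family, the proteins that set whether a cell survives or enters the mitochondrial pathway of apoptosis. They were taken by symbol from a table of 17457 genes measured in CD4+ T cells, and all 10 were found: the anti-apoptotic genes Bcl2, Bcl2l1 (BCL-XL) and Mcl1, the BH3-only genes Bcl2l11 (BIM), Bid, Bbc3 (PUMA), Pmaip1 (NOXA) and Bad, and the effector genes Bax and Bak1. In this pathway BAX and BAK open the outer mitochondrial membrane, BCL2, BCL-XL and MCL1 hold them in check, and BH3-only proteins act as sensors that bind the anti-apoptotic members or engage the effectors. In T cells, stimulation through the antigen receptor together with CD28 is known to raise BCL-XL, cytokines of the common gamma chain family maintain BCL2 and MCL1, and BIM is a main driver of death when an immune response ends.

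The study compared CD4+ T cells from mice that overexpress thymic stromal lymphopoietin (TSLP), an epithelial cytokine, with control CD4+ T cells. The mice are described as having terminal tumors, although the title of CONTROL 4 names no tumor and no tumor transgene. There were 10 RNA sequencing libraries from 9 mouse samples, 6 named TEST and 4 named CONTROL, with replicate numbers given in accession order. By the labels every sample, CONTROL included, had 5 h of culture with aCD3, aCD28, IL-2 and TSLP ahead of RNA extraction, although the text of the study describes cells used straight after sorting. TEST 1 (Draining LN) and TEST 2 (Non-draining LN) came from the same pool of 4 C57BL/6 mice, K14-TSLP +/tg, TSLPR -/- hosts given Ly5.1 CD4+ T cells and injected PyMT tumors. TEST 3 was a Non-draining LN pool of 2 mice of that same kind. TEST 4 was 1 C57BL/6 mouse, K14-TSLP +/tg, MMTV-PyMT +/tg, TSLPR +/-, with its own T cells. TEST 5 and TEST 6 were Balb/c mice carrying K14-TSLP +/tg and MMTV-PyMT +/tg, TEST 5 on a Rag1 -/- background with CD4+ T cells transferred at 4 weeks of age and TEST 6 Rag1 +/- with its own T cells. CONTROL 1 (a pool of 4, Draining LN) and CONTROL 2 (1 mouse) were C57BL/6 TSLPR -/- hosts given TSLPRKO CD4+ T cells and PyMT tumors. Their titles name no TSLP transgene, which does not show that it was absent. CONTROL 3 was a C57BL/6 K14-TSLP +/tg, MMTV-PyMT +/tg, TSLPR -/- mouse sampled from Spleen, and CONTROL 4 was a Balb/c Rag1 +/- mouse for which no transgene is named. The K14 promoter drives TSLP in keratinocytes and the MMTV promoter drives PyMT mainly in mammary epithelium, so both are directed at epithelial cells. TEST and CONTROL thus also differed in hosts, T cell sources and tumor models, which cannot be told apart from TSLP signalling in the means below.

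Values are FPKM, which divide the fragments of a gene by its transcript length and by the library size, so levels can be compared between genes. The number of reads is unknown. Summed FPKM ranged from 359703 to 535736, and ribosomal RNA rows made up 1.18% of the sum in TEST 4 and between 10.7% and 25.99% elsewhere, which raises all other values in TEST 4. Crlf2, the TSLP receptor subunit deleted in TSLPR -/- cells, lay between 0.15 and 0.21 FPKM in the CONTROL libraries of TSLPR-null cells (CONTROL 1 to 3), at 3.28 in CONTROL 4 and between 5.70 and 34.9 in TEST. The 6 T cell markers (Cd3d, Cd3e, Cd3g, Cd4, Lck and Cd28) summed to 790 to 1873 FPKM. The B cell gene Cd79a was at 11.85 in CONTROL 2, 3.90 in TEST 4 and at most 1.21 elsewhere, and TEST 4 had the highest sums of neutrophil (31.1) and red cell (50.5) markers.

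Mcl1 was the most abundant of the 10 genes in 10 of 10 libraries, with a median of 153.6 FPKM. Bcl2 followed with a median of 53.1, then Bcl2l11 with 49.9, Bax with 48.5 and Bak1 with 37.7. The order among Bcl2, Bcl2l11 and Bax was not stable, since Bcl2 exceeded Bcl2l11 in 6 libraries and Bcl2l11 exceeded Bax in 5. Bak1 exceeded Bcl2l1 in 10 of 10 libraries, and Bcl2l1 had a median of 15.7. The remaining BH3-only genes were low, with medians of 5.66 for Bid, 4.21 for Pmaip1 and 3.85 for Bad, and the neighbours in this order changed places in 4 of the 10 libraries. Bbc3 was the lowest of the 10 genes in 8 libraries, with Bad the lowest in CONTROL 2 and Pmaip1 in CONTROL 4. Bcl2l11 was therefore the one BH3-only gene at the level of Bcl2 and the effector genes. These are levels in bulk cells, in which fewer cells expressing a gene and less RNA per cell cannot be told apart.

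**Figure D1:**
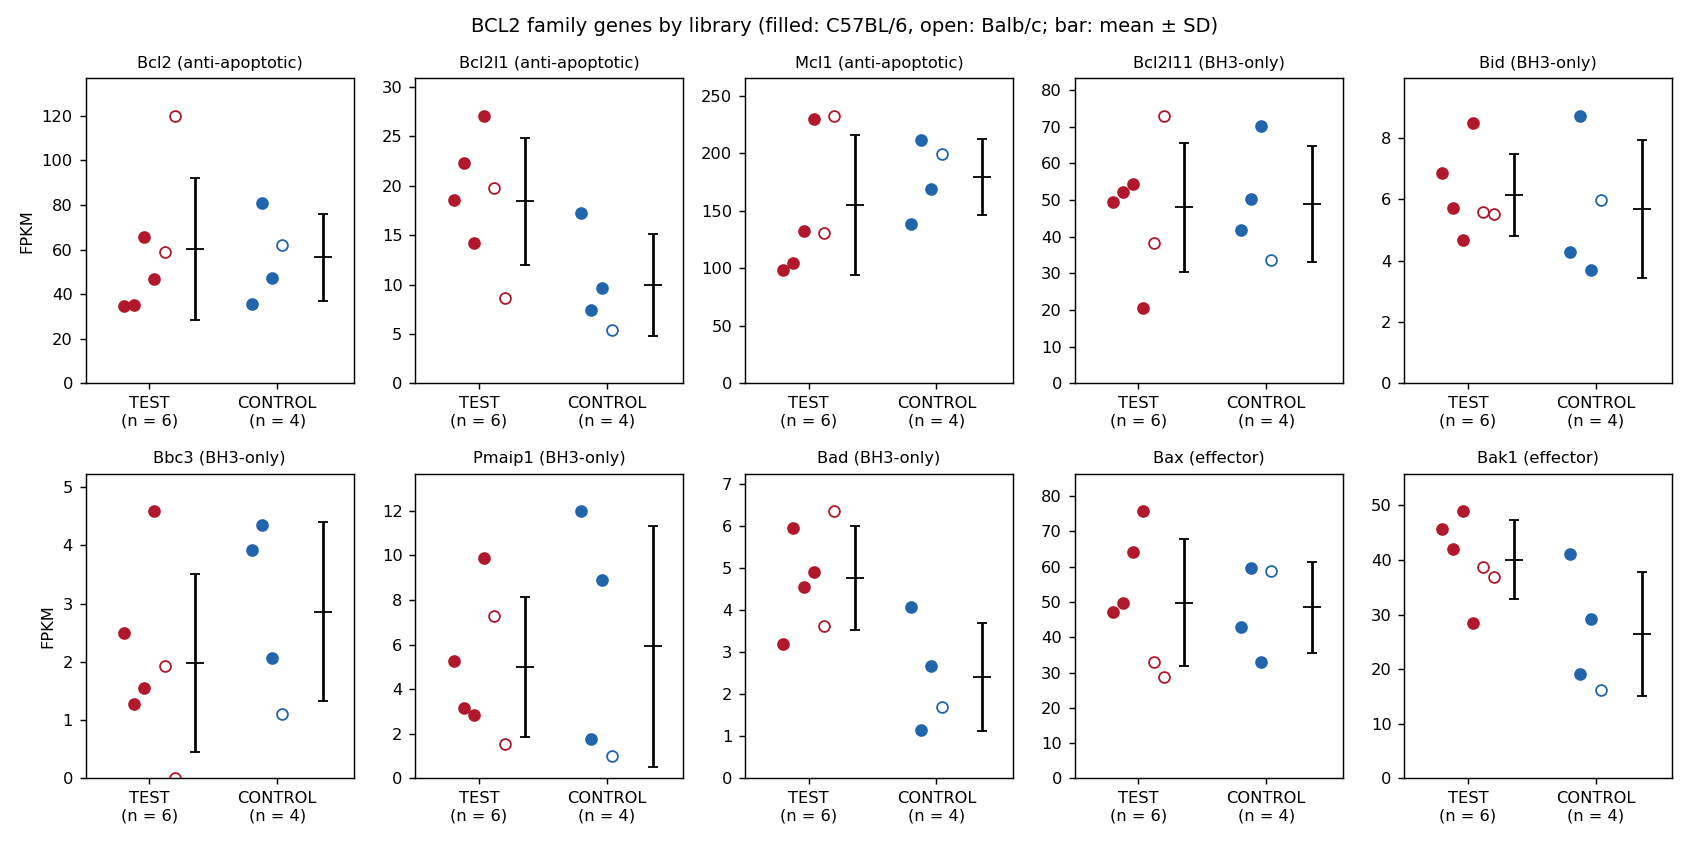
FPKM (vertical axes, a separate scale for each gene) of the 10 BCL2 family genes in each TEST (red, n = 6) and CONTROL (blue, n = 4) library, filled for C57BL/6 and open for Balb/c, with the mean and SD as bars. Bcl2l1, Bad and Bak1 have the higher means in TEST with overlapping groups, and Bcl2 reaches 120.0 in 1 open TEST point.

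No gene of the family was called between TEST and CONTROL. The test was limma on log2(FPKM + 1), with p adjusted by the Benjamini-Hochberg method over 10743 genes, of which 10 (0.0931%) had an adjusted p under 0.05, 0.0745% being higher in TEST and 0.0186% lower. At an unadjusted p under 0.05, 3 of the 10 genes (Bcl2l1, Bad and Bak1) were higher in TEST and 0 were lower, against 6.42% higher and 7.3% lower (13.7% in all) over all genes tested. None of the 10 genes was called without TEST 4, CONTROL 1 or TEST 6 either, where 0.793%, 0.473% and 0.292% of all genes tested were. The groups did not separate for any of the 10 genes, against 3.44% of all genes tested. The differences of the 10 genes had a median of 0.03 on the log2 scale, beside 0.003 over all genes. The replicates are single mice or pools, and TEST 1 and TEST 2 share their mice, so p-values take the same mice as 2 replicates.

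Among the anti-apoptotic genes, Bcl2l1 (gene ID 12048, chromosome 2, 152758732 to 152833803 on GRCm38.p6), whose product BCL-XL protects activated T cells, had, with Bad and Bak1, 1 of the 3 differences whose 95% interval lay above 0. It was at 8.63 to 27.1 FPKM in TEST, with a median of 19.2 and the lowest value in TEST 6, and at 17.2, 7.45, 9.63 and 5.35 in CONTROL 1 to 4. Of the TEST libraries, 4 lay above every CONTROL library, while TEST 6 was below CONTROL 1 and CONTROL 3. The means were 18.4 ± 6.42 (SD, n = 6) and 9.91 ± 5.17 (SD, n = 4), a difference of 0.87 on the log2(FPKM + 1) scale (95% interval 0.15 to 1.59), with a limma adjusted p of 0.291. Under 26 alternatives the difference stayed positive (0.64 to 1.15) and the adjusted p ranged from 0.105 to 0.636. Without CONTROL 2 or without CONTROL 4, the unadjusted p of Bcl2l1, Bad and Bak1 was no longer under 0.05. That of Bak1 was also 0.0814 in TPM, 0.056 with quantile scaling, 0.11 with ribosomal RNA rows left out, 0.0515 without TEST 3 and 0.139 within C57BL/6, where that of Bad was 0.0927. In the exact permutation test the unadjusted p was 0.0619 for Bcl2l1, 0.0524 for Bak1 and 0.019 for Bad.

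Bcl2 (gene ID 12043, chromosome 1, 106538176 to 106714290), the founding member of the family and a prosurvival gene of resting T cells, ranged from 34.5 to 120.0 FPKM in TEST with a median of 52.995. In CONTROL 1 to 4 it was at 35.7, 81.1, 47.1 and 61.9 FPKM. The lowest values, 34.5, 35.1 and 35.7, were those of TEST 1, TEST 2 and CONTROL 1, the libraries from pools of 4 mice, and TEST 6 stood above all others. After rescaling without ribosomal RNA rows the lowest value was instead that of TEST 4, from 1 mouse, at 31.8, followed by CONTROL 1 at 36.2. The groups overlapped over most of their range, and the difference was 0.02 on the log2 scale (95% interval -0.70 to 0.74, limma adjusted p = 0.988). Its sign depended on the scaling: with the ribosomal RNA rows left out the difference was -0.13.

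Mcl1 (gene ID 17210, chromosome 3, 95656944 to 95663179) encodes a short-lived anti-apoptotic protein that T cells need at every stage. It was at 98.4 to 233 FPKM in TEST with a median of 131, and at 138, 211, 169 and 199 in CONTROL 1 to 4. In TEST, 4 libraries lay below every CONTROL library, while TEST 4 and TEST 6 lay above them all. The difference was -0.28 on the log2 scale (95% interval -0.89 to 0.32, limma adjusted p = 0.690), and it was negative in 26 of 26 alternatives (-0.53 to -0.17). The value of 230.3 in TEST 4 became 156 when the values were rescaled without ribosomal RNA rows, which placed it between CONTROL 1 at 140.3 and CONTROL 3 at 175. After the same rescaling TEST 6 was at 199.7, below CONTROL 2 at 243.9 and CONTROL 4 at 224.0. No TEST library then lay above every CONTROL library, and TEST 5 at 153.1 lay above CONTROL 1.

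Within a library, ratios of the genes do not move with ribosomal RNA content or depth, and they are given as a description. Bcl2l1 made up 2.01% to 13.8% of the summed FPKM of Bcl2, Bcl2l1 and Mcl1, and Mcl1 made up 62.3% to 75.7%. The Bcl2l1 share was 6.70% or more in 5 of 6 TEST libraries and 4.27% or less in 3 of 4 CONTROL libraries, the exceptions being TEST 6 at 2.39% and CONTROL 1 at 9.00%. The ratio of Bcl2l1 to Bcl2 ran from 0.0719 in TEST 6 to 0.637 in TEST 2, with a median of 0.436 in TEST and 0.148 in CONTROL. The same ratio was 0.482 in CONTROL 1 against 0.0919 in CONTROL 2, 0.204 in CONTROL 3 and 0.0865 in CONTROL 4. The log2 ratio averaged 0.93 higher in TEST, less than the SD within either group (1.20 in TEST and 1.16 in CONTROL). That difference was 0.61 without CONTROL 4, 0.64 without CONTROL 2 and 1.44 without CONTROL 1. The ratio of Bcl2l1 to Mcl1 had medians of 0.135 in TEST and 0.0461 in CONTROL, and its log2 average was 1.23 higher in TEST, where the SDs were 0.909 and 0.970.

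The libraries with high ratios were not those of 1 group alone. The summed FPKM of the proliferation genes Mki67, Top2a, Ccnb1 and Cdk1 was 124 in TEST 1, 106 in TEST 2 and 94.2 in CONTROL 1. The remaining TEST libraries had 34.2 to 44.6, and the remaining CONTROL libraries 11.2 to 17.7. CONTROL 1, the CONTROL library with the most Bcl2l1 and Bak1, was thus also the one with the most proliferation transcripts. TEST 4 went the other way. Its ratio of Bcl2l1 to Bcl2, 0.578, was exceeded only by that of TEST 2, and its proliferation sum, 34.2, was the lowest of TEST. The part of proliferation in the levels of the BCL2 family was not tested.

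**Figure D2:**
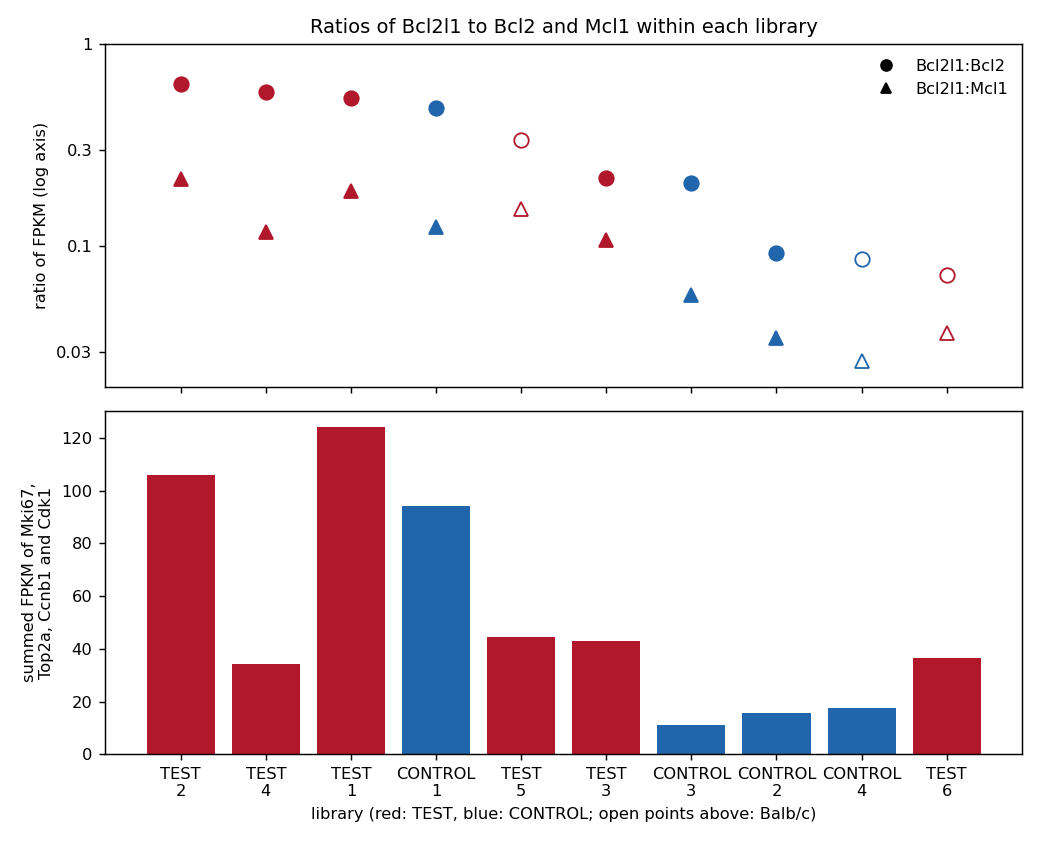
Ratio of the FPKM of Bcl2l1 to that of Bcl2 (circles) and Mcl1 (triangles) on a log axis in each library, above the summed FPKM of 4 proliferation genes (bars), with TEST in red, CONTROL in blue and open points for Balb/c. Libraries are ordered by the ratio of Bcl2l1 to Bcl2, from 0.637 in TEST 2 to 0.0719 in TEST 6, and CONTROL 1 lies among the TEST libraries on both measures.

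Of the BH3-only genes, Bcl2l11 (gene ID 12125, chromosome 2, 128126038 to 128162547), which encodes BIM, ranged from 20.6 to 72.9 FPKM in TEST with a median of 50.9. In CONTROL 1 to 4 it was at 41.7, 50.2, 70.1 and 33.5 FPKM. TEST 4 had the lowest value and TEST 6 the highest of all 10 libraries, so the TEST range enclosed the CONTROL range. After rescaling without ribosomal RNA rows the highest value was instead that of CONTROL 3 (72.6, against 62.6 in TEST 6). The difference was -0.07 on the log2 scale (95% interval -0.74 to 0.60, limma adjusted p = 0.943) and 0.15 without TEST 4. The table has 1 value per gene, so the splice forms of BIM, which differ in how strongly they kill, and the BCL-XL and BCL-XS forms of Bcl2l1 were not separated.

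Bad (gene ID 12015, chromosome 19, 6941861 to 6951905), a sensor that growth factor signals hold inactive by phosphorylation, ranged from 3.19 to 6.35 FPKM in TEST with a median of 4.73. In CONTROL 1 to 4 it was at 4.07, 1.16, 2.68 and 1.70 FPKM. The groups overlapped only through CONTROL 1, which lay above TEST 1 and TEST 5. The means were 4.76 ± 1.25 (SD, n = 6) and 2.40 ± 1.28 (SD, n = 4), a difference of 0.81 on the log2 scale (95% interval 0.16 to 1.45), with a limma adjusted p of 0.280. Without CONTROL 1 the groups separated, as they did for 8.65% of all genes tested there, and the difference was 1.02 with an adjusted p of 0.159. Bad overlaps Gpr137 in the annotation, and the sources used here do not say whether counting was stranded. Gpr137 was at 3.44 ± 1.63 FPKM (SD, n = 6) in TEST and 1.79 ± 1.32 (SD, n = 4) in CONTROL, so the low values of Bad are uncertain.

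Pmaip1 (gene ID 58801, chromosome 18, 66458604 to 66465558) encodes NOXA, which binds MCL1 and is a target of p53. It had the widest range of the 10 genes on the log2(FPKM + 1) scale. It was at 1.54 to 9.88 FPKM in TEST with a median of 4.21, and at 11.98, 1.76, 8.91 and 1.02 in CONTROL 1 to 4. The CONTROL libraries held both the highest and the lowest value, and the difference was 0.04 (95% interval -1.12 to 1.21, limma adjusted p = 0.981), negative under 12 of 26 alternatives.

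Bbc3 (gene ID 170770, chromosome 7, 16308398 to 16318334) encodes PUMA, a target of p53 and of FOXO3. It was listed at 0 in TEST 6 and reached 4.59 FPKM in TEST 4, with a TEST median of 1.75, and it was at 3.92, 4.35, 2.06 and 1.10 in CONTROL 1 to 4. The groups overlapped, with a difference of -0.45 on the log2 scale (95% interval -1.39 to 0.48, limma adjusted p = 0.677). It was -0.17 without TEST 6, -0.26 without CONTROL 2, -0.71 without CONTROL 4 and -0.97 with a pseudocount of 0.1. Bid (gene ID 12122, chromosome 6, 120893119 to 120917062) links death receptors to mitochondria after caspase 8 cuts its protein. It was at 4.68 to 8.51 FPKM in TEST with a median of 5.66, and at 4.28, 8.73, 3.71 and 5.98 in CONTROL 1 to 4. For Bid the CONTROL range enclosed the TEST range, and the difference was 0.14 (95% interval -0.44 to 0.72, limma adjusted p = 0.858).

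Both effectors were expressed in every library, Bak1 at 16.3 FPKM or more and Bax at 28.8 or more. Bak1 (gene ID 12018, chromosome 17, 27019812 to 27028627) ranged from 28.4 to 48.9 FPKM in TEST with a median of 40.3, and at 41.1, 19.1, 29.2 and 16.3 in CONTROL 1 to 4. CONTROL 1 and CONTROL 3 lay within the TEST range, CONTROL 3 just above its lowest value, that of TEST 4, and CONTROL 2 and CONTROL 4 lay below it. When the values were rescaled without ribosomal RNA rows, TEST 4 was at 19.2, below CONTROL 2. Only CONTROL 4 then lay below the TEST range. The means were 40.1 ± 7.23 (SD, n = 6) and 26.4 ± 11.3 (SD, n = 4), a difference of 0.65 on the log2 scale (95% interval 0.10 to 1.21), with a limma adjusted p of 0.302. Over 26 alternatives the difference was 0.46 to 0.89 and the adjusted p 0.0893 to 0.658. The smallest of these adjusted p-values, which was the smallest of any of the 10 genes, came from the fit that weights libraries by their quality and calls 3.11% of all genes.

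Bax (gene ID 12028, chromosome 7, 45461695 to 45466903) ranged from 28.8 to 75.8 FPKM in TEST with a median of 48.5, and at 42.8, 59.7, 33.1 and 58.7 in CONTROL 1 to 4. The CONTROL range lay inside the TEST range, with means of 49.8 ± 17.9 (SD, n = 6) and 48.6 ± 12.9 (SD, n = 4) and an adjusted p of 0.998 in limma. The ratio of Bax to Bak1 was 0.784 to 1.31 in 5 TEST libraries and 2.66 in TEST 4. It was 1.04 in CONTROL 1, 1.13 in CONTROL 3, 3.13 in CONTROL 2 and 3.61 in CONTROL 4. The ratio was above 2 in 3 libraries, in which Bak1 had its lowest values.

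**Figure D3:**
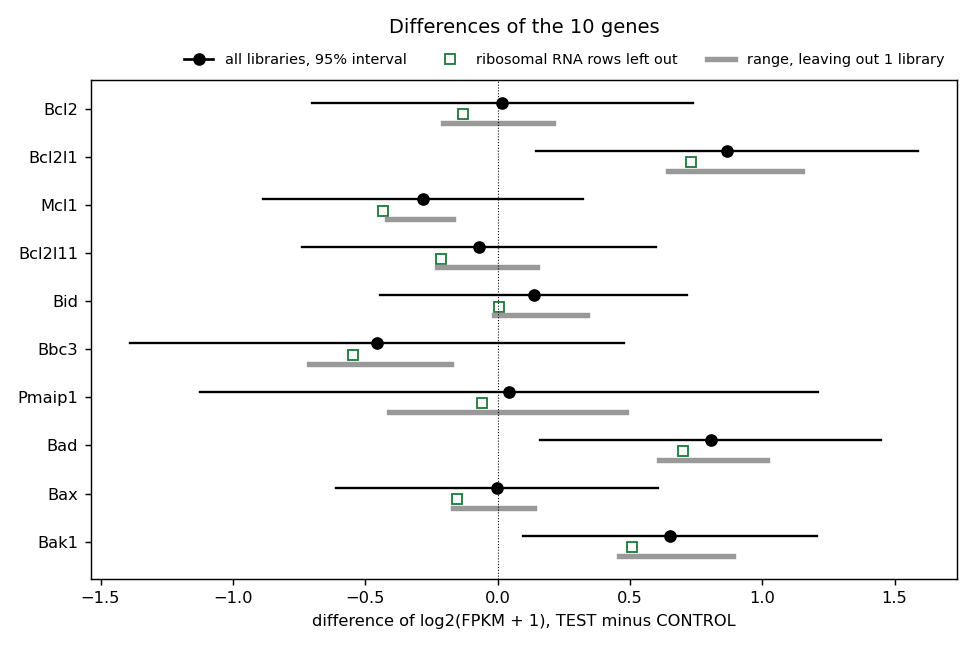
Difference of log2(FPKM + 1) between TEST and CONTROL for each of the 10 genes (circles, with the 95% interval of limma as lines), the same with ribosomal RNA rows left out (squares), and the range when 1 library at a time was left out (grey bars). The intervals of Bcl2l1, Bad and Bak1 lie above 0, as do their grey bars, and the grey bars of Bcl2, Bcl2l11, Bid, Pmaip1 and Bax cross 0.

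Strain was compared in a fit with group as a term, over 3 Balb/c and 7 C57BL/6 libraries. None of the 10 genes was called, against 0.596% of the genes tested. Bbc3 was 0.97 lower in Balb/c on the log2 scale (SE 0.397), with an unadjusted p of 0.029 and an adjusted p of 0.479 in limma, and 9.07% of all genes tested had an unadjusted p under 0.05. Bcl2 was 0.68 higher in Balb/c (SE 0.318, limma adjusted p = 0.552), and Bcl2l1 was 0.69 lower (SE 0.320, limma adjusted p = 0.553). All 3 values rest in part on TEST 6, without which they were -0.58 for Bbc3 (limma unadjusted p = 0.193, adjusted p = 0.879), 0.34 for Bcl2 and -0.44 for Bcl2l1. The strains differ in tumor models and hosts as well, and the Balb/c CONTROL is 1 library.

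The difference between TEST and CONTROL was also compared between strains. For Bax, the Balb/c TEST libraries had 33.1 and 28.8 FPKM against 58.7 in the Balb/c CONTROL, while the C57BL/6 TEST libraries had 47.2 to 75.8 against 33.1 to 59.7. The interaction was -1.30 on the log2 scale (SE 0.514), with an unadjusted p of 0.0261 and an adjusted p of 0.9998 in limma. No gene was called in that test, and 222 genes (2.07%) had an unadjusted p under 0.05. Within C57BL/6 alone, Bcl2l1 kept a difference of 0.83 (limma adjusted p = 0.362), Bad of 0.70 (adjusted p = 0.493) and Bak1 of 0.49 (adjusted p = 0.550).

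TEST 1 and TEST 2 allow Draining LN and Non-draining LN of the same 4 mice to be set side by side, with 1 library each and no test. The genes above 10 FPKM were close, with non-draining to draining ratios of 1.02 for Bcl2, 1.06 for Mcl1, 1.05 for both Bcl2l11 and Bax, 0.919 for Bak1 and 1.21 for Bcl2l1. Of the 4 low genes, Bid had a ratio of 0.836, and the others were farther apart, with ratios of 0.508 for Bbc3, 0.597 for Pmaip1 and 1.86 for Bad.

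Of the rest of the family, 15 further genes were found and 9 tested, of which 0 were called, 3 were higher in TEST at an unadjusted p under 0.05 and 0 were lower. Their median difference was 0.48 on the log2 scale. Bcl2a1d, an anti-apoptotic A1 gene induced by NF-kappaB, was at 36.7 to 99.6 FPKM in TEST and 23.2 to 53.5 in CONTROL, a difference of 1.07 (limma adjusted p = 0.181). Its paralog Bcl2a1b was at 44.3 to 154 in TEST and 39.9 to 80.1 in CONTROL, a difference of 0.69 (limma adjusted p = 0.342). The A1 genes are near-identical copies, so the division of reads between them is uncertain. Bcl2l12 had means of 3.78 in TEST and 1.40 in CONTROL (limma adjusted p = 0.327), and Bik, a BH3-only gene, had a value of 13.5 in TEST 5 and at most 2.58 elsewhere (limma adjusted p = 0.378).

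Downstream of mitochondria, 12 genes of the apoptosome and caspases were tested, with 0 called and 0 at an unadjusted p under 0.05 in limma, and a median difference of 0.11. Endog, a mitochondrial nuclease, had means of 2.78 in TEST and 4.43 in CONTROL (limma adjusted p = 0.503), Cycs, cytochrome c, 32.6 and 25.6 (adjusted p = 0.545), and Casp6, an executioner caspase, 10.5 and 5.81 (adjusted p = 0.594). Htra2, a mitochondrial protease, had a difference of 0.51 (limma adjusted p = 0.605). Of 6 inhibitors of apoptosis 0 were called, 1 (Birc6) was lower at an unadjusted p under 0.05, and the median was -0.17. Birc6, a large ubiquitin ligase that binds caspases, had means of 33.1 in TEST and 49.1 in CONTROL, a difference of -0.54 (limma adjusted p = 0.328). Birc2, Birc5 and Cflar, the inhibitor of caspase 8, had adjusted p-values of 0.591, 0.667 and 0.691.

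The death receptor pathway feeds into the family through Bid, and 0 of its 11 genes were called, with 1 higher (Tnfsf10) and 1 lower (Tnfrsf10b) at an unadjusted p under 0.05 and a median of 0.04. Tnfrsf10b, the mouse receptor for TRAIL, was at 3.57 to 14.2 FPKM in TEST and 15.5 to 20.8 in CONTROL. Its groups did not overlap, as for 3.44% of all genes tested, with a difference of -0.81 (limma adjusted p = 0.288). After rescaling without ribosomal RNA rows the groups of Tnfrsf10b overlapped, with TEST 5 above CONTROL 1. Its ligand Tnfsf10 (TRAIL) had means of 21.9 ± 6.68 (SD, n = 6) and 13.5 ± 1.57 (SD, n = 4), a difference of 0.61 (limma adjusted p = 0.313). Tradd and Fasl had differences of 0.69 and 0.38 (limma adjusted p = 0.393 and 0.658).

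The inputs to the BH3-only genes were read in the same way. Of the p53 list, 10 of 11 genes were tested, 0 were called or had an unadjusted p under 0.05, and the median was 0.01. The lowest unadjusted p-values were those of Ccng1 (difference 0.26, limma adjusted p = 0.592), Phlda3 (0.58, 0.639), Mdm2 (-0.26, 0.662) and Trp53inp1 (-0.24, 0.768). Of 7 FOXO and stress genes 0 were called, 1 (Foxo3) was lower at an unadjusted p under 0.05, 6 had negative differences, and the median was -0.27. Foxo3, a transcription factor that activates Bcl2l11 and Bbc3, was at 7.39 to 15.4 FPKM in TEST and at 13.1, 20.4, 19.4 and 19.4 in CONTROL 1 to 4, a difference of -0.74 (limma adjusted p = 0.247). Only CONTROL 1 lay within the TEST range. Foxo1, Tsc22d3 and Jun had adjusted p-values of 0.536, 0.738 and 0.795.

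Of 10 genes of survival cytokine signalling 0 were called, 1 (Crlf2) was higher at an unadjusted p under 0.05, 9 had positive differences and the median was 0.31. Apart from Crlf2, which the design alters (difference 2.82, limma adjusted p = 0.0502), the smallest p-values were those of Il2rb (0.57, adjusted p = 0.472), Pim1 (0.45, 0.546) and Il2ra (0.61, 0.581), all components or targets of the IL-2 response. The list on MCL1 turnover held 3 genes, all with negative differences, 0 called and 2 lower at an unadjusted p under 0.05 (Usp9x and Huwe1). Usp9x, the deubiquitinase that stabilises MCL1, was at 29.1 to 44.5 FPKM in TEST and 38.2 to 55.8 in CONTROL, a difference of -0.53 (limma adjusted p = 0.276). Huwe1, a ligase that marks MCL1 for degradation, was at 40.7 to 53.7 in TEST and 54.1 to 100.4 in CONTROL, a difference of -0.48 (limma adjusted p = 0.332). These groups did not overlap, as for 3.44% of all genes tested. After rescaling without ribosomal RNA rows the groups of Huwe1 overlapped, with TEST 1 above CONTROL 3. Fbxw7, a subunit of another ligase that acts on MCL1, had a difference of -0.40 (limma adjusted p = 0.421).

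**Figure D4:**
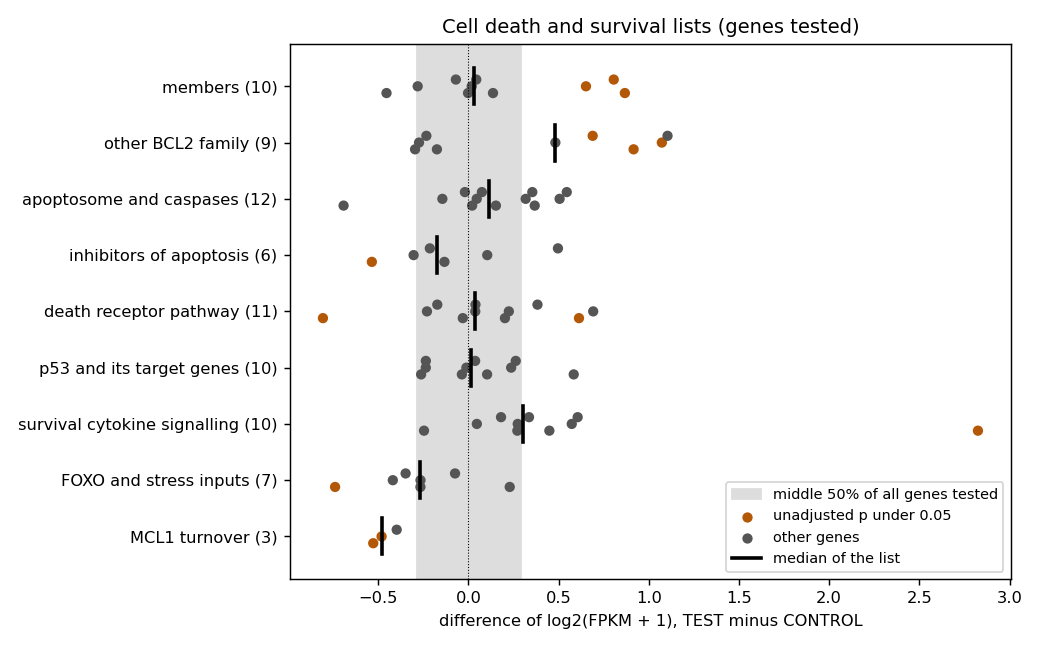
Difference of log2(FPKM + 1), TEST minus CONTROL, for each tested gene of the BCL2 family (members) and of 8 related lists, with the number of genes tested in brackets, the median of each list as a black line and the middle 50% of all genes tested in grey (-0.288 to 0.293). Orange points have an unadjusted p under 0.05, no point has an adjusted p under 0.05, and the point near 2.8 is Crlf2.

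Promoter letters of the family are shown for STAT5, STAT6, FOXO and AP-1 factors, of which STAT6 is in none of these lists. The RefSeq windows of GRCm38.p6 were searched, which run from 250 bases before to 50 bases after a gene start. Of the 10 genes, 9 had at least 1 such window, with 3 each for Bbc3 and Bcl2l1 and 2 for Bcl2l11. The percentages below are shares of single windows, not of genes. The search covered both strands. The STAT6-type letters, TTC and GAA with any 4 bases between them, occurred in 6.95% of 32851 windows and in 1 window of Bcl2l1. The FOXO letters TGTTTAC occurred in 3.65% of windows and in 1 window each of Bbc3 and Bcl2l11. The STAT5-type letters TTCNNNGAA (8.3% of windows) and the AP-1 letters TGANTCA (7.81%) had no match in the windows of these genes. The matches are given below, 5′ to 3′ on the strand of the gene, with the motif in capitals, at chr7:16310084-16310110 (plus strand) for Bbc3, chr2:128125801-128125827 (plus strand) for Bcl2l11 and chr2:152828474-152828503 (minus strand) for Bcl2l1.
Bbc3: ctggcgggttTGTTTACaaacaatggg
Bcl2l11: agacactaggGTAAACAcgccggggtg
Bcl2l1: tgagtgctttTTCTTCAGAAtcctgctcgc
In Bcl2l11 the FOXO letters read on the opposite strand, the first base of the motif lying at -227 from 1 of 2 listed starts, and in Bbc3 it lies at -167 from 1 of 3 listed starts, inside the gene as annotated. In Bcl2l1 the motif begins at -4 and runs across 1 of 3 listed starts, also inside the gene as annotated. These are matches of letters only, and the libraries hold no measurement of binding.

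The genes closest to the 3 most variable members in pattern were found by the root-mean-square difference of centred log2(FPKM + 1) over the 10 libraries, after rescaling without ribosomal RNA rows. For Pmaip1 (SD over libraries 0.932) they were Dgat2 (0.319), Ccrl2 (0.344) and Gem (0.413). For Bbc3 (SD 0.726) they were Peo1 (0.301), Tchp (0.303) and Mtap1s (0.303). For Bcl2l11 (SD 0.647) they were Acat3 (0.232), Gsk3b (0.25) and A430033K04Rik (0.285).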

How the data were processed

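Beijing Genomics Institute made libraries from total RNA of the sorted, stimulated CD4+ T cells and sequenced them on an Illumina HiSeq instrument. Alignment was to mm10 with Bowtie. BWA and RSEM are further tools in the submitters' processing notes, which give no versions. The deposited FPKM values were computed by the authors, and reads, depth and use of strand are not given in the sources used here. Values were taken as log2(FPKM + 1), and a pseudocount of 1 understates changes of low genes. A gene was tested if 4 or more libraries reached FPKM 1. The test was limma 3.58.1 under R 4.3.3 (trend on, no covariate, two-sided, Benjamini-Hochberg over 10743 genes, threshold 0.05), which replaced the study's count-based methods because the unit is FPKM. The model was also run on simulated data, drawn independently for each gene and library. That run does not cover the mice shared by TEST 1 and TEST 2 or shifts of a whole library such as TEST 4. RefSeq annotation of GRCm38.p6 matched 99.7% of rows by gene ID. The members, lists and tests were chosen with earlier results of these data known. All 10 members were named, with up to 4 genes of each other list by smallest unadjusted p and the 3 genes most alike to each of the 3 most variable members. Alternatives covered the pseudocount, filter, scaling, ribosomal RNA rows, weights, prior, strain, averaging of TEST 1 and TEST 2, an exact permutation test and leaving out each library. Fits that rescaled the values and left out TEST 4 were added after seeing the data. 1 gene of the apoptosome and caspases list and the summed B cell markers are not reported here.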

Additional observations from a re-analysis of the deposited data

Results flagged for a closer look

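Bcl2 in TEST 6, the Balb/c Rag1 +/- library with its own T cells, was at 120.04 FPKM, farther above the other 5 TEST libraries (34.5 to 65.7) than Dixon's criterion allows at the 95% level. It was the 1 value singled out among 20 groups examined (10 genes in each of TEST and CONTROL), and chance gives about 1 in 20. After rescaling without ribosomal RNA rows the value was 103, the highest of the 10 libraries, but its gap to the next TEST value of 69.3 was 0.474 of the TEST range, under the critical 0.625, so it no longer stood out by that criterion (0.635 before rescaling). This check was chosen after seeing the data. The same library had the lowest Bcl2l1 of TEST (8.63 FPKM), the highest Bcl2l11 of TEST (72.9 FPKM) and Bbc3 listed at 0. Its summed T cell markers, 1873 FPKM, were also the highest of the 10 libraries, and their part in the value was not tested. Without TEST 6 the Bcl2 difference was -0.21 on the log2 scale (limma adjusted p = 0.765).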

How the results depend on the processing

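None of the 10 genes was called under any alternative, while the number of genes called over the whole table, 10 in the reported fit, was 20 with a pseudocount of 0.1, 0 with a pseudocount of 5 (1440 at an unadjusted p under 0.05), 1 with no filter, 5 with a filter at FPKM 5, 21 in TPM, 21 with median-ratio scaling, 24 with quantile scaling, 20 with ribosomal RNA rows left out, 334 with library weights, 19 with a robust prior and 28 with strain as a covariate. It was 0 by limma with TEST 1 and TEST 2 averaged (1256 at an unadjusted p under 0.05) and 0 by the exact permutation test over 210 splits (1343 unadjusted, smallest possible p 0.00476). Leaving out 1 library gave 0 to 84 calls in limma, 84 without TEST 4, 52 without CONTROL 1, 31 without TEST 6, 2 without TEST 1, and 0 without TEST 2 (1175 at an unadjusted p under 0.05), CONTROL 2 (875) or CONTROL 3 (1167). Without TEST 4, added after seeing the data, it was 106 with ribosomal RNA rows left out and 86 with median-ratio scaling. TPM and leaving out ribosomal RNA rows moved the median difference of all genes to -0.15 and -0.13. Bcl2l1, Bad, Bak1, Mcl1 and Bbc3 kept their direction in all alternatives that could be computed, where a filter at FPKM 5 removed Bad and Bbc3. The log2 difference of Bcl2 turned negative in TPM (-0.143), with quantile scaling (-0.0473), ribosomal RNA rows left out (-0.132), library weights (-0.133), strain as a covariate (-0.0387) and within C57BL/6 (-0.225), and ranged from -0.206 to 0.211 with 1 library left out. That of Bcl2l11 turned positive with library weights (0.0476) and, without TEST 4, with ribosomal RNA rows left out (0.101) and median-ratio scaling (0.257), and ranged from -0.23 to 0.148 with 1 library left out. That of Bid was -0.0002 in TPM and ranged from -0.0118 to 0.337 with 1 library left out. That of Pmaip1 turned negative with a pseudocount of 5 (-0.0433), in TPM (-0.041), with ribosomal RNA rows left out (-0.0575), library weights (-0.225), within C57BL/6 (-0.3) and, without TEST 4, with ribosomal RNA rows left out (-0.169) and median-ratio scaling (-0.0749), and ranged from -0.409 to 0.486 with 1 library left out. That of Bax turned positive with a pseudocount of 5 (0.001), median-ratio scaling (0.0226), library weights (0.0917), strain as a covariate (0.0334) and within C57BL/6 (0.398), and ranged from -0.169 to 0.136 with 1 library left out. The causes were not tested. No paired analysis was made, because replicate numbers follow accession order and the labels name no mouse shared by TEST and CONTROL.

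The 95% intervals of the 7 genes other than Bcl2l1, Bad and Bak1 include 0 but are wide (-0.61 to 0.61 for Bax), so equal levels were not shown. The low values of Bad, Bbc3, Bid and Pmaip1 rest on an unknown number of reads. FPKM does not measure protein, on which MCL1, BIM and BAD are largely controlled.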
